A study of Mus musculus with 4 samples.

Results

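The 8 genes described here are *Nr3c1*, which encodes the glucocorticoid receptor, and 7 genes known to be induced by glucocorticoids, namely *Rasd1*, *Tsc22d3*, *Fkbp5*, *Sgk1*, *Klf9*, *Zbtb16* and *Errfi1*. They are 8 of the 18373 genes measured by RNA-seq in cultured primary liver sinusoidal endothelial cells (LSECs), the fenestrated endothelial cells that line the blood channels of the liver. They were picked by symbol with results of these data known. *Rasd1* was chosen because its decrease in the libraries labelled si*Airn* was the largest among named genes, and the other 7 because they belong to the same hormone response. The values below that separate the groups for these 8 genes are therefore a description. No p-value is given for them. The counts of them past a threshold, given beside those of all genes and again under other settings, carry no evidence. The choice of *Rasd1* already required that it passed.

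Glucocorticoids are steroid hormones that bind a receptor held in the cytoplasm by heat shock proteins and their co-chaperones. The bound receptor moves to the nucleus, where it attaches to palindromic response elements near some genes and raises their transcription, and it also restrains inflammatory genes driven by NF-kappaB and AP-1. Several of its induced genes act back on the pathway or on other signals, which makes them common readouts of glucocorticoid action in liver and endothelium. Whether the LSEC medium held a glucocorticoid is not given in the sources used here.

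Primary LSECs came from the livers of 8-week-old Balb/c mice, were selected with anti-CD146 beads and were cultured in collagen-coated plates. The 2 NC libraries came from cells transfected for 48 h with a control siRNA, and the 2 si*Airn* libraries from cells transfected for 48 h with siRNA against *Airn*, a long noncoding RNA transcribed from the *Igf2r* imprinted locus. All 4 libraries are of the same strain and culture stage (day 3) and carry no other allele or agent in their labels. The labels call the 2 libraries of each group biological replicates, but which animals or cultures they came from is not clear from them. Whether the 2 si*Airn* libraries received 1 or 2 different siRNA is also unclear. Both labels carry si*Airn*1, while the study's methods speak of 2 separate si*Airn*.

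The libraries held between 17308382 and 18371959 estimated counts. *Airn* itself was counted 7 and 3 times in the NC libraries, against 11 and 9 times in the libraries labelled si*Airn*. These few counts were not lower in the latter, with a ratio of si*Airn* to NC of 1.97 (95% exact binomial interval 0.88 to 4.71, counting error only). For this reason the treated libraries are called the libraries labelled si*Airn* here. LSEC markers and pan-endothelial markers were abundant, with summed levels in the NC libraries of 3681 and 3699 CPM (counts scaled to library size) for 10 LSEC markers and of 10763 and 10245 CPM for 10 pan-endothelial markers, whereas *Cd209b* was at or near 0 in every library. Lymphocyte and neutrophil markers summed to between 4.13 and 6.58 CPM.

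The response element can be read in the sequence of 1 of these genes. A palindrome that reads the same on both strands, with the letters GNACA, then any 3 letters, then TGTNC (N being any base), was searched in windows of 300 bases, from 250 before to 50 after each transcript start (RefSeq, GRCm38.p6), read on the strand of the gene. Of the 8 genes, 5 had an entry, with 13 windows in all, and the palindrome was found in 1 of them, at an *Sgk1* start (chr10:21993640-21993939, plus strand). Among all 32851 windows, 156 (0.475%) held it. The window is shown because its palindrome, in capitals, lies in the gene of highest level among the 8.

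Sgk1: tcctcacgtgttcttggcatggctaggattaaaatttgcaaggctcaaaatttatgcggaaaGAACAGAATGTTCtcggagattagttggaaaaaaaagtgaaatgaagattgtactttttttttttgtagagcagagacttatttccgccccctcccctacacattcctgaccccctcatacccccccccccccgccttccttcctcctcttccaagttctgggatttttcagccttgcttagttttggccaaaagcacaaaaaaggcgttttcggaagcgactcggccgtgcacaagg

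The centre of the palindrome lies 182 bases before this start. A shorter word of the element, AGAACA, which can overlap the palindrome, was searched on both strands. It was found in 4 of the 13 windows, against 6233 of all 32851 windows (19.0%). *Rasd1*, *Zbtb16* and *Nr3c1* have no entry in this table. A match describes letters only and is not evidence of binding.

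The same palindrome stood at the starts of 5 of 30 other glucocorticoid-induced genes with an entry, against 145 of all 27025 genes (0.537%), and stretches of 37 bases around it are given to show how much its free letters vary between genes of the same response.

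Mt1 (chr8:94178983-94179019, plus strand): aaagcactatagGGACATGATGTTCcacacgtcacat

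Map3k6 (chr4:133240625-133240661, plus strand): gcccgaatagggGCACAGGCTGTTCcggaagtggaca

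Txnip (chr3:96557773-96557809, plus strand): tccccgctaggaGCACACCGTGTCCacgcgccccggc

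Slc10a6 (chr5:103629542-103629578, minus strand): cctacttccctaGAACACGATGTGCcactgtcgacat

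Fam107a (chr14:8309873-8309909, minus strand): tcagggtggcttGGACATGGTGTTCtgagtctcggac

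Of these 5 genes and *Sgk1*, whose windows hold the palindrome, *Slc10a6* and *Fam107a* had too few counts to be tested. The log2 fold change of *Mt1*, a metallothionein gene that binds zinc and copper, was -0.29 (SE 0.08, edgeR quasi-likelihood test, adjusted p = 0.0423), and its adjusted p rose to 0.299 when GC content and transcript length were corrected for. The log2 fold change of *Txnip*, an inhibitor of thioredoxin, was 0.16 (SE 0.06, adjusted p = 0.11) and that of *Map3k6*, a stress-activated kinase, was 0.17 (SE 0.10, adjusted p = 0.291), and neither passed. The estimates for these genes lay on both sides of 0. These 3 genes were named for their sequence.

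Levels of the 8 genes in the NC libraries spanned from 0.12 to 104 FPKM. On the FPKM scale, which divides by transcript length and so allows genes to be compared, *Sgk1* had the highest level at 104 ± 2.03 (mean ± SD, n = 2), and *Errfi1* followed at 45.7 ± 0.382. A middle group was formed by *Fkbp5* (14.8 ± 1.03), *Nr3c1* (14.8 ± 0.841), *Tsc22d3* (12.9 ± 0.714) and *Klf9* (10.8 ± 1.21). *Rasd1* had 5.71 ± 0.806 FPKM and *Zbtb16* 0.12 ± 0.0141 FPKM. The 2 NC libraries separated each gene from the next in this order, except *Fkbp5* and *Nr3c1*, whose ranges overlapped.

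**Figure D1:**
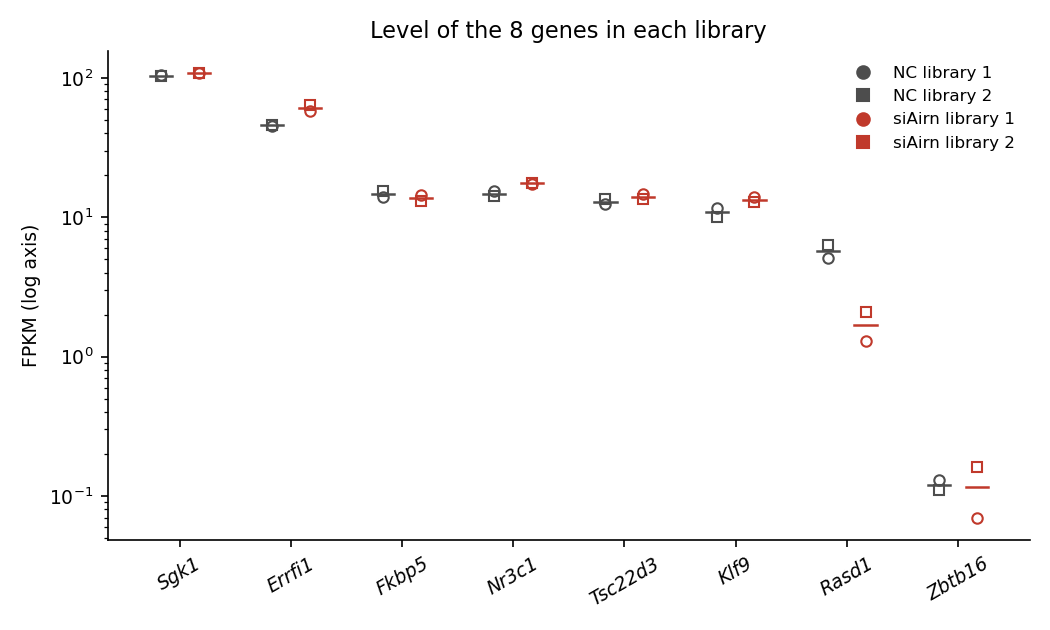
Level of each of the 8 genes in FPKM (vertical axis, logarithmic) in the 2 NC (grey) and 2 si*Airn* (red) libraries, ordered by the NC mean; horizontal bars are group means. The *Rasd1* points are the ones with a wide gap between groups, 5.14 and 6.28 FPKM in NC against 1.29 and 2.10 in the libraries labelled si*Airn*.

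*Rasd1* encodes a small Ras-like GTPase that was named for its induction by dexamethasone and that activates heterotrimeric G protein signalling without a receptor. It lies on chromosome 11 from 59963181 to 59964944 on the minus strand (GRCm38, GENCODE M21), with 1 annotated transcript of 1611 exonic bases, none of which lies under an exon of another gene or is shared with another gene over 50 bases. The estimated counts were 133 and 172 in the NC libraries against 34 and 55 in those labelled si*Airn*. In CPM these are 7.76 CPM (95% exact Poisson interval 6.50 to 9.20) and 9.51 CPM (8.14 to 11.0) against 1.88 CPM (1.30 to 2.63) and 3.11 CPM (2.34 to 4.05), where the intervals cover counting error only. Both libraries labelled si*Airn* lay below both NC libraries and the groups did not overlap.

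On average *Rasd1* reached 8.63 ± 1.23 CPM in the NC group (SD, n = 2) against 2.5 ± 0.869 CPM in the other (SD, n = 2), which is 3.46-fold higher in NC. The log2 fold change was -1.79 (SE 0.26). The first si*Airn* library held 0.218 of the NC mean and the second 0.360, so the libraries of that group also differed from each other, and without the second the log2 fold change was -2.20. Over 16 alternatives of processing it ranged from -2.20 to -1.33 and was negative in each. In bulk RNA, fewer cells that express a gene and less RNA of that gene per cell cannot be told apart.

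Among the 2149 named genes that averaged 5 CPM or more and passed an adjusted p under 0.05, *Rasd1* had the lowest log2 fold change, which is how it was chosen. The values just inside and outside that choice were -1.79 for *Rasd1*, -1.69 for *Dbp* and -1.51 for both *Ly6a* and *A2m*. At 5.56 CPM over all 4 libraries, *Rasd1* stood close to the minimum of 5 CPM. Among all 13628 genes tested, without that minimum, it was 24th from the lowest.

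The 5 genes with the profile most like that of *Rasd1* were found by Euclidean distance between log2 CPM values over the 4 libraries, each gene centred on its own mean, among 10479 genes. *Dbp*, a circadian transcription factor, was nearest at a distance of 0.519, where the median over these genes was 1.91. It had 15.5 and 18.2 CPM in NC against 5.19 and 5.28 CPM in the libraries labelled si*Airn*. *A2m*, a protease inhibitor, followed at 0.653, with 8.17 and 9.62 against 3.21 and 3.05 CPM. In both genes the libraries labelled si*Airn* were closer to each other than they were for *Rasd1*.

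*Igfbp3*, which binds insulin-like growth factors, was at a distance of 0.657, with 40.1 and 38.9 CPM in NC against 14.2 and 14.5 CPM. *Jam2*, an endothelial junction protein, was at 0.689, with 119 and 169 CPM against 54.6 and 68.4 CPM. *Ly6a*, a surface protein found on endothelial and progenitor cells, was at 0.692, with 69.6 and 65.3 CPM against 24.1 and 23.2 CPM. The genes were chosen for sharing the profile of *Rasd1*, so that both libraries labelled si*Airn* lie below both NC libraries follows from the choice. The likeness rests on 4 libraries of a single contrast.

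**Figure D2:**
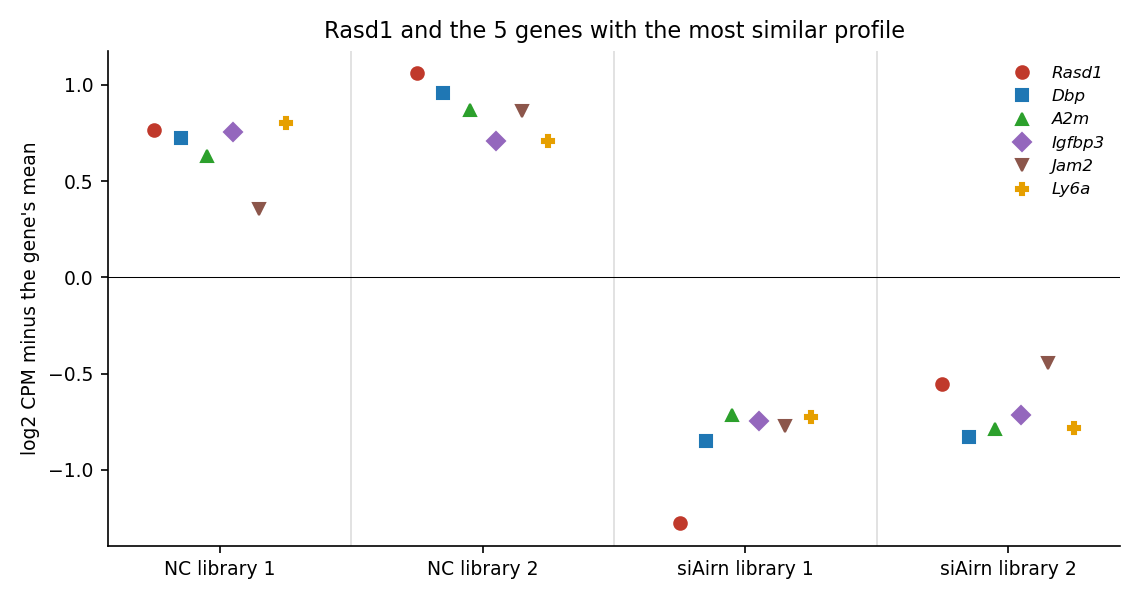
Values of log2 CPM minus each gene's mean (vertical axis) in the 4 libraries (horizontal axis) for *Rasd1* and the 5 genes of most similar profile; each point is 1 gene in 1 library. All 6 genes lie above 0 in both NC libraries and below 0 in both libraries labelled si*Airn*, and *Rasd1* is the lowest of them in the first si*Airn* library but not in the second.

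*Nr3c1* differed much less. Its level was 96.8 and 89.9 CPM in the NC libraries and 107 and 109 CPM in the libraries labelled si*Airn*. The groups did not overlap, with the libraries labelled si*Airn* higher, and the log2 fold change was 0.21 (SE 0.07). This direction turned under the corrections for GC content and length, with values down to -0.026 in 2 of 16 alternatives. At 42.2% GC, and 6436 bases, *Nr3c1* is a long gene of low GC content. The 2581 genes with the lowest GC content, to which it belongs, had a median log2 fold change of 0.14.

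The 2 genes among these that act back on receptor or inflammatory signalling were close between groups. *Fkbp5* encodes FKBP51, a co-chaperone that lowers the affinity of the receptor for hormone, and had 53.5 and 59.2 CPM in NC against 53.3 and 48.5 CPM. The libraries labelled si*Airn* were below both NC libraries, though 1 of them only just, with a log2 fold change of -0.15 (SE 0.08). *Tsc22d3* encodes GILZ, a leucine zipper protein that restrains NF-kappaB and AP-1, and had 23.8 and 26.0 CPM in NC against 27.2 and 25.4 CPM. Its groups overlapped, with a log2 fold change of 0.08 (SE 0.09).

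*Sgk1* encodes a kinase that promotes sodium transport and cell survival. It had 251 and 245 CPM in NC and 250 and 253 CPM in the libraries labelled si*Airn*. These 4 values overlapped, with a log2 fold change of 0.02 (SE 0.06), the smallest among the 8 genes, which stayed between 0.00 and 0.06 over the 16 alternatives. *Sgk1* is also the gene whose promoter window, printed above, holds the palindrome.

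*Errfi1* encodes MIG6, a feedback inhibitor of the EGF receptor. It had 134 and 136 CPM in NC against 167 and 186 CPM in the libraries labelled si*Airn*. The groups did not overlap, and the mean was 1.31 times higher in si*Airn*, with a log2 fold change of 0.38 (SE 0.07) and a range of 0.31 to 0.46 over the 16 alternatives. It lies on chromosome 4 from 150853919 to 150868892 on the plus strand (GRCm38).

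*Klf9* encodes a zinc finger transcription factor that takes part in circadian and glucocorticoid responses, and had 54.4 and 47.9 CPM in NC against 60.5 and 56.0 CPM. Both libraries labelled si*Airn* were higher, with a log2 fold change of 0.19 (SE 0.09) that ranged from 0.065 with the length correction to 0.305 over the alternatives and was 0.097 without the second NC library. *Zbtb16* encodes PLZF, a zinc finger repressor strongly induced by glucocorticoids in several tissues. It had 20 and 16 estimated counts in NC against 11 and 21, or 1.17 and 0.884 against 0.609 and 1.19 CPM. With so few counts the groups overlapped, the log2 fold change was -0.19 (SE 0.46), and its sign turned in 2 of 14 alternatives, both of which left out a library, with values from -0.74 to 0.21.

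**Figure D3:**
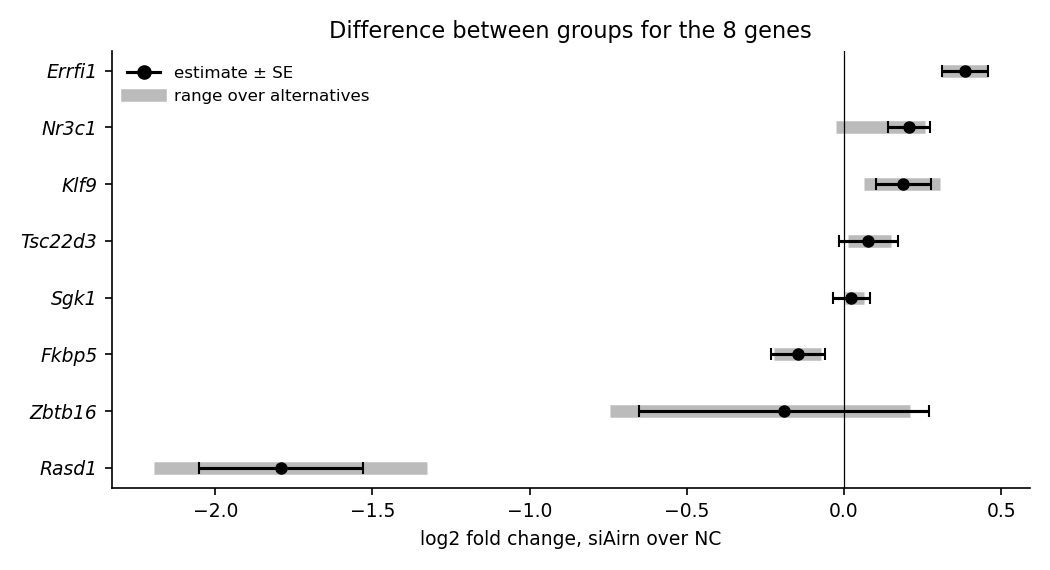
Log2 fold change of si*Airn* over NC (horizontal axis) for each of the 8 genes. Points are edgeR estimates and bars the SE derived from the test statistic. Grey bands are the range over the alternatives of processing (14 for *Zbtb16*, 16 for the others). *Rasd1* lies at -1.79, and the other 7 lie between -0.19 and 0.38.

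Of the 8 genes, *Errfi1* was higher and *Rasd1* lower at an adjusted p under 0.05 (edgeR quasi-likelihood test). Of all 13628 genes tested, 16.8% passed that threshold, 8.27% higher and 8.56% lower. The study's methods ask instead for a fold above 1.4 with a p, before adjustment, under 0.05. By that rule *Rasd1* alone passed, as did 9.96% of all genes, 5.25% higher and 4.72% lower. In CPM, the groups did not overlap for 5 of the 8 genes, 3 higher and 2 lower, and for 62.7% of all genes, 30.8% higher and 31.9% lower. In FPKM, *Fkbp5* overlapped (14.05 and 15.5 against 14.45 and 13), while *Sgk1* (105 and 102 against 108 in both) and *Tsc22d3* (12.43 and 13.44 against 14.59 and 13.45) did not. Since the genes were chosen on this contrast, nothing is read from these counts. The median log2 fold change of the 8 genes was 0.05, against 0.00 for all genes. With 1 library left out, the log2 fold change of *Rasd1* ranged from -2.20 to -1.47 and that of *Errfi1* from 0.31 to 0.46.

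Most endothelial markers fell after si*Airn* transfection. The summed level of the 10 LSEC markers was 2599 and 2353 CPM in the libraries labelled si*Airn*, below both NC libraries, and 8 of the 9 tested fell. That of the pan-endothelial markers was 7806 and 6840 CPM, with 7 of 10 lower, where 8.56% of all genes were called lower.

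Markers of other liver cells differed in how far they followed the groups. Those of Kupffer cells and macrophages summed to 108 and 145 CPM in NC and to 82.6 and 68.7 CPM in the libraries labelled si*Airn*, with 5 of 9 tested lower (55.6%, against 8.56% of all genes). Those of stellate cells and fibroblasts summed to 859 and 1049 against 1046 and 1437 CPM, so that the sums overlapped. Of these 10 markers, 2 were called higher, all had positive log2 fold changes, and for 7 both libraries labelled si*Airn* lay above both NC libraries, as for 30.8% of all genes. Hepatocyte markers summed to 578 and 738 against 808 and 1048 CPM, and these sums did not overlap. Of the 9 tested, 1 was called higher (11.1%, against 8.27% of all genes), all had positive log2 fold changes, and for 5 both libraries labelled si*Airn* lay above both NC libraries. The part of any of these cell types, LSECs included, in the values of the 8 genes was not tested.

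Other genes that glucocorticoids induce in many tissues were next compared, from a list of 34, of which 30 were tested. Of these, 3 rose and 6 fell at an adjusted p under 0.05, and 21 did not pass. That is 30% of those tested, where 16.8% of all genes passed (8.27% higher, 8.56% lower). *Irs2*, an adaptor of the insulin receptor, rose from 28.9 and 30.6 CPM to 40.4 and 47.1 CPM (log2 fold change 0.56, SE 0.10, adjusted p = 0.0156). *Tnfaip3*, an inhibitor of NF-kappaB, rose by a log2 fold change of 0.33 (SE 0.08, adjusted p = 0.0295) and *Pdk4*, which turns cells away from glucose oxidation, by 0.31 (SE 0.08, adjusted p = 0.0357).

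The list's decreases included *Dusp1*, a phosphatase that switches off MAP kinases, which fell from 181 and 185 CPM to 139 and 141 CPM (log2 fold change -0.38, SE 0.06, adjusted p = 0.0116). *Cdkn1c*, a cell cycle inhibitor, had a log2 fold change of -0.51 (SE 0.11, adjusted p = 0.023) and *Glul*, glutamine synthetase, of -0.36 (SE 0.10, adjusted p = 0.0439). *Rhob*, a small GTPase, had -0.31 (SE 0.07, adjusted p = 0.0319). The largest fold was that of the metallothionein *Mt2*, at 61.7 and 82.7 CPM against 46.9 and 49.0 CPM (log2 fold change -0.59, SE 0.13, adjusted p = 0.0282), but 73.5% of its exonic bases lie under exons of a gene on the opposite strand, so its reads are uncertain where the counting did not use strand. *Per1*, a clock gene with well-known response elements, had 26.4 and 26.3 CPM against 31.8 and 32.2 CPM and did not pass (log2 fold change 0.28, SE 0.08, adjusted p = 0.0565), though it did in 4 of 16 alternatives.

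*Cdkn1a* and *Angptl4* had high levels in the list and did not pass, with log2 fold changes of 0.02 (SE 0.06) and 0.41 (SE 0.12, adjusted p = 0.0587). Of 16 alternatives, *Angptl4* passed in 7 and *Cdkn1a* in 1. The median of the list was 0.08, against 0.00 over all genes tested. With GC content and transcript length corrected for, 2 genes of the list were called higher and 1 lower. They were *Irs2* (adjusted p = 0.03), *Per1* (0.0465) and *Dusp1* (0.0408). The calls of *Mt2* (0.0587), *Cdkn1c* (0.124), *Glul* (0.0652), *Mt1* (0.299), *Tnfaip3* (0.194), *Pdk4* and *Rhob* were lost. The log2 fold changes of *Glul* (-0.34), *Mt2* (-0.39), *Cdkn1c* (-0.32), *Mt1* (-0.11) and *Tnfaip3* (0.16) kept their sign. With length alone corrected for, *Irs2* did not pass (log2 fold change 0.33, adjusted p = 0.0887). Without the first NC library the median of the list was 0.08, and without the second it was 0.10.

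Genes that glucocorticoids induce in hepatocytes, such as *Tat*, *Pck1* and *Tdo2*, were hardly present. Only *Angptl8* of 8 was tested, with 0.829 to 1.93 CPM in the 4 libraries, and it did not pass. The other 7 had at most 0.525 CPM in any library.

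Inflammatory genes that glucocorticoids repress were all measured, 20 of 20. Of these, 3 rose, 1 fell and 16 did not pass. The share of 20% is close to the 16.8% of all genes that passed. *Ptgs2*, the inducible cyclooxygenase, rose from 14.2 and 12.2 CPM to 23.4 and 22.4 CPM (log2 fold change 0.79, SE 0.11, adjusted p = 0.00946). *Csf1*, the macrophage growth factor, rose from 779 and 832 to 1033 and 1307 CPM (0.54, SE 0.11, adjusted p = 0.0225), and *Vcam1*, an endothelial adhesion molecule, from 109 and 113 to 138 and 145 CPM (0.35, SE 0.06, adjusted p = 0.0165).

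In the opposite direction, *Ccl2*, a monocyte chemokine, fell from 742 and 782 to 568 and 602 CPM (log2 fold change -0.38, SE 0.06, adjusted p = 0.0134). The list's median was 0.32, and it ranged from -0.03 to 0.60 over the alternatives, with the libraries left out at both ends. With GC content and length corrected for, *Ptgs2*, *Csf1* and *Ccl2* passed, while *Vcam1* did not (log2 fold change 0.21, adjusted p = 0.08). With length alone corrected for, *Ptgs2* and *Vcam1* passed, while *Csf1* and *Ccl2* did not. The median of the list was 0.14 without the first NC library and 0.54 without the second. It was 0.60 without the first si*Airn* library and -0.03 without the second. *Il6*, named after its values were seen, varied more within groups than between them, with 7.0 and 10.8 CPM in NC against 9.29 and 14.5 CPM. In both groups the second library was the higher, and each library labelled si*Airn* lay above the NC library of the same number.

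The receptor's chaperones and coregulators were tested for all 16 genes of their list, of which 4 rose and 0 fell (8 at an unadjusted p under 0.05, edgeR's quasi-likelihood test). Of all genes, 8.27% were called higher and 8.56% lower, and 4631 of 13628 had an unadjusted p under 0.05. All 4 are coregulators. *Ep300*, a histone acetyltransferase, rose from 93.1 and 84.5 to 128 and 124 CPM (log2 fold change 0.51, SE 0.07, adjusted p = 0.00932). *Nrip1*, a corepressor of nuclear receptors, rose from 73.1 in both NC libraries to 103 and 105 CPM (0.51, SE 0.06, adjusted p = 0.00683).

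*Ncoa2*, the coactivator GRIP1, had a log2 fold change of 0.44 (SE 0.07, adjusted p = 0.0114) and *Med1*, a Mediator subunit, of 0.32 (SE 0.07, adjusted p = 0.0286). With length alone corrected for, 4 genes of the list were called higher and 0 lower, but *Ncoa2* and *Med1* were not among them. Once GC content and length were both corrected for, *Ep300* alone passed (log2 fold change 0.32, adjusted p = 0.035). The log2 fold changes of the others were then 0.24 for *Nrip1* (adjusted p = 0.053), 0.22 for *Ncoa2* (0.0736) and 0.09 for *Med1* (0.485). Without either NC library 0 of the 16 passed (edgeR's quasi-likelihood test, 7 and 4 at an unadjusted p under 0.05). The chaperone *Fkbp4*, which competes with FKBP51 for the receptor, had 104 and 107 CPM in NC against 108 and 103 CPM, with a log2 fold change near 0 (SE 0.06).

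The mineralocorticoid receptor *Nr3c2*, which also binds glucocorticoids, had 2.89 to 4.12 CPM in the 4 libraries, with a log2 fold change near 0 (SE 0.25) whose sign turned in 4 of 14 alternatives. *Hsd11b1*, which regenerates active glucocorticoid within cells, had 47.2 and 52.5 CPM in NC against 55.4 and 64.9 CPM and did not pass (log2 fold change 0.27, SE 0.10, adjusted p = 0.104). *Hsd11b2*, which inactivates the hormone, had 0 to 3 counts in each library. Of 8 genes of this list, 6 were tested and 0 passed (edgeR's quasi-likelihood test, 1 at an unadjusted p under 0.05, and 0 by DESeq2). By the former test 4631 of all 13628 genes had an unadjusted p under 0.05.

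The closest paralogue of *Rasd1*, *Rasd2*, was counted 3 and 0 times in NC against 2 and 0 times in the other group, and was not tested. Of 9 tested genes among the partners of *Rasd1*, 1 passed (11.1%, against 16.8% of all genes). *Gnai2*, an inhibitory G protein alpha subunit, fell from 1208 and 1227 to 955 and 907 CPM (log2 fold change -0.39, SE 0.06, adjusted p = 0.0114), and its adjusted p was 0.0534 with GC content and length corrected for. *Gnai1*, the subunit usually named as the partner of *Rasd1*, had 16.9 and 16.6 CPM against 18.8 and 23.7 CPM (0.34, SE 0.13, adjusted p = 0.118).

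Paralogues of the other 7 genes gave 1 increase and 1 decrease among 11 tested, a share of 18.2% that is near the 16.8% of all genes. *Tsc22d2*, of the same family as *Tsc22d3*, rose from 92.9 and 87.0 to 126 and 143 CPM (log2 fold change 0.58, SE 0.08, adjusted p = 0.00906). *Fkbp8*, an immunophilin of mitochondria, fell from 225 and 235 to 181 and 175 CPM (-0.37, SE 0.06, adjusted p = 0.0138). Neither passed with GC content and length corrected for, with adjusted p of 0.0527 and 0.15.

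In the pathway around *Sgk1* and *Errfi1*, 3 of 11 tested genes rose and 0 fell (edgeR's quasi-likelihood test), where 8.27% of all genes were called higher and 8.56% lower. At an unadjusted p under 0.05 there were 6 of the 11, and 4631 of all 13628 genes. *Egfr*, the receptor that MIG6 inhibits, rose from 116 and 133 to 158 and 215 CPM (log2 fold change 0.58, SE 0.14, adjusted p = 0.0363). *Rictor*, a subunit of the mTORC2 complex that phosphorylates SGK1, rose from 45.3 and 41.6 to 65.1 and 64.7 CPM (0.58, SE 0.07, adjusted p = 0.00775). With GC content and length corrected for, their adjusted p were 0.252 and 0.0518, and 0 genes of the list passed. The median log2 fold changes of partners, paralogues and pathway were 0.30, -0.05 and 0.20 without the first NC library. Without the second they were 0.07, -0.08 and 0.10.

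**Figure D4:**
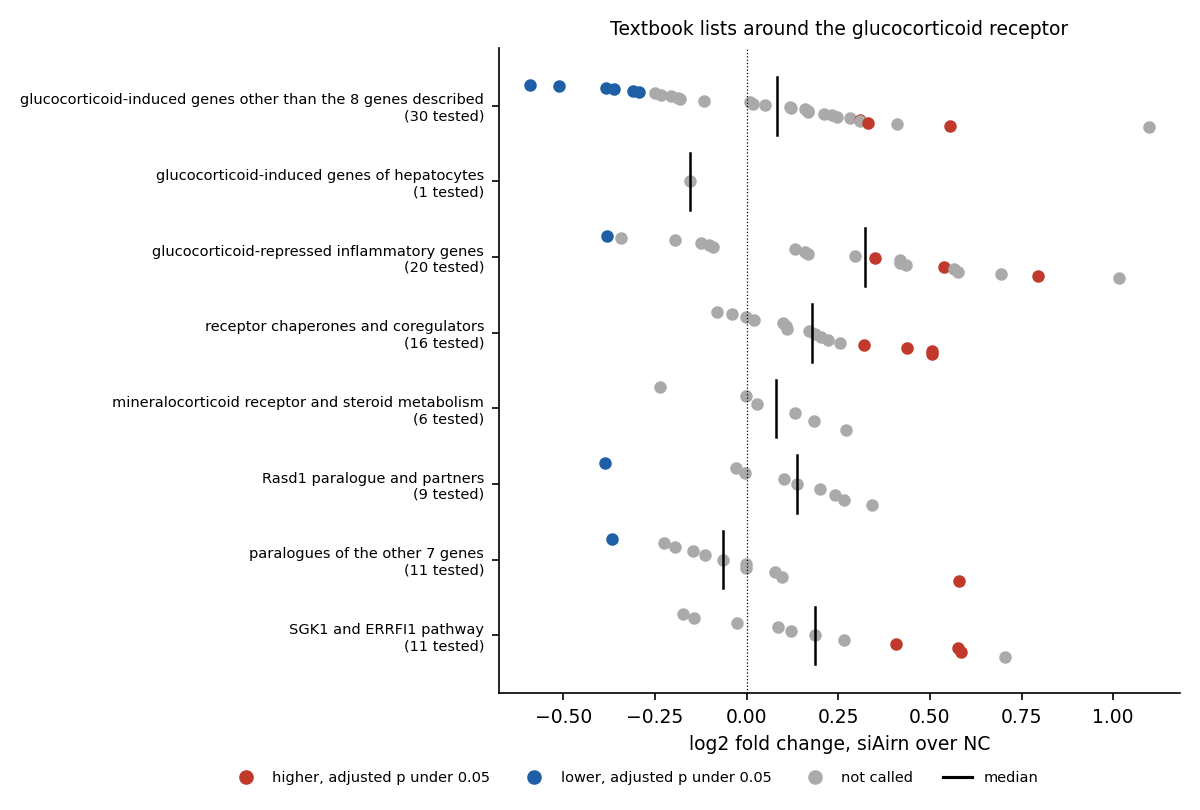
Log2 fold change of si*Airn* over NC (horizontal axis) for each tested gene of the 8 textbook lists around the receptor; red and blue points passed an adjusted p under 0.05, grey points did not, and black bars are list medians. The induced genes spread to both sides of 0, while the 4 called coregulators and the 3 called genes of the SGK1 and ERRFI1 pathway lie to the right.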

How the data were processed

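The 4 RNA-seq libraries of primary LSECs were grouped by their labels (2 NC, 2 si*Airn*). Single-end reads of 50 bases came from the BGISEQ-500 platform. The submitters' processing notes name BWA, Bowtie2, RSEM and the build hg19 without giving their roles, hg19 being a human build, and the use of strand is not given in the sources used here. The authors deposited estimated counts without normalization, not all of which are whole numbers. The other values deposited by the authors carry no unit in the header and were read as FPKM, because they follow count over transcript length and library total. The group means were not used.

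The counts were rounded and tested in R 4.3.3 with edgeR 4.0.16 (TMM, filterByExpr with default settings, glmQLFit and glmQLFTest, no covariate), with Benjamini-Hochberg adjustment over 13628 genes. SE was derived from this test, as the absolute log2 fold change divided by the square root of the F statistic. CPM uses TMM library sizes. With 2 libraries per group, p-values measure only the spread between these libraries. Replicates were not duplicates, since a chi-square statistic averaged 6.37 (NC) and 8.51 (si*Airn*) per gene, over the genes tested with a count in the pair. On simulated counts, the test found 98 of 100 genes changed 2-fold and 100 of 100 changed 4-fold, and called 8 unchanged genes (13586 tested). The simulation gave every gene the same spread, changed only genes above a minimum mean count, and held no replicate, length or GC effect. Its counts are therefore not rates of detection or error for the real libraries.

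The 8 genes and all lists were chosen with earlier results of these data known, and the 8 textbook and 6 marker lists were written from general knowledge. Genes named are the 8, *Airn*, the 3 nearest to *Rasd1* by fold change, the 5 most like it, up to 6 genes with an adjusted p under 0.05 and up to 2 abundant others per list, and *Nr3c2*, *Hsd11b1*, *Hsd11b2*, *Rasd2*, *Per1*, *Dusp1* and *Mt2*. Values are not given for each of them. Exceptions to this rule are marked, save for *Cd209b*, *Pdk4*, *Rhob*, *Tat*, *Pck1*, *Tdo2*, *Fkbp4* and *Gnai1*. Alternatives were DESeq2 1.42.0 (adjusted p missing for 2114 genes), upper-quartile normalization, other filters, the likelihood-ratio test, limma 3.58.1 on log2(FPKM + 1) and log2(FPKM + 0.1), a replicate block, a length correction, the rule of the study's methods and leaving out each library. A correction for GC content and length (GENCODE M21, natural splines with 5 degrees of freedom per library, 12905 genes) was added after seeing the data. Promoter windows came from RefSeq (GRCm38.p6). Gene coordinates are those of GRCm38 and were matched by symbol.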

Additional observations from a re-analysis of the deposited data

How the results depend on the processing

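Of the 8 genes, *Rasd1*, *Errfi1*, *Fkbp5*, *Sgk1*, *Klf9* and *Tsc22d3* kept their direction under all 16 alternatives, whereas *Nr3c1* and *Zbtb16* did not. Levels per 10000 CPM of pan-endothelial markers, a scale on which the lower marker sum raises every gene in the libraries labelled si*Airn*, put *Fkbp5* higher there (49.7 and 57.8 in NC against 68.2 and 71.0), and also *Sgk1* (233 and 239 against 321 and 370) and *Tsc22d3* (22.1 and 25.4 against 34.9 and 37.1), while *Rasd1* was lower (7.21 and 9.28 against 2.41 and 4.55). The log2 fold change of *Rasd1* was -1.33 by limma on log2(FPKM + 1), whose pseudocount weighs on low levels, and between -2.20 and -1.47 when 1 library was left out. A fit without a library leaves 1 library in a group, which is assumed to vary like the other group. How many genes passed an adjusted p under 0.05 depended on the fit. Over all genes it was 2294 by edgeR's quasi-likelihood test, 1242 by limma on log2(FPKM + 1), 7 by limma on log2(FPKM + 0.1), 1301 with the length correction, 1024 with the correction for GC content and length, 1358 by the rule of the study's methods, and between 0 and 2410 with 1 library left out (0 without the second NC library, where 3106 had an unadjusted p under 0.05). The cause of these shifts was not tested. The median log2 fold change was 0.14 in the 2581 genes with the lowest GC content and -0.14 in the 2581 with the highest, and -0.16 in the 2582 shortest and 0.19 in the 2580 longest.

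For the 8 genes the count of 2, from which nothing is read, was 0 by limma on log2(FPKM + 0.1) and 1 by the rule of the study's methods. In that limma fit 4 of the 7 tested had an unadjusted p under 0.05, as did 3835 of all 11667 genes. By limma on log2(FPKM + 0.1) 0 genes passed in the lists of other induced genes, repressed genes, coregulators, partners, paralogues and pathway, with 14, 6, 9, 3, 2 and 3 at an unadjusted p under 0.05. For the settings below, lists whose count stayed within 1.5 times that of the edgeR fit are left out. By limma on log2(FPKM + 1) 3 other induced genes, 1 paralogue and 1 pathway gene passed. With the length correction 3 other induced genes, 2 repressed genes, 1 gene of steroid metabolism and 1 pathway gene passed. With GC content and length corrected for, 3 other induced genes and 1 coregulator passed, and 0 partners, paralogues and pathway genes. Of the latter, 2, 5 and 2 had an unadjusted p under 0.05 (edgeR's quasi-likelihood test), as did 3626 of all 12905 genes. By the rule of the study's methods 4 other induced genes, 2 coregulators, 0 partners and 1 paralogue passed. Partners numbered 2 with at least 10 counts in every library and 2 by the likelihood-ratio test. With 1 library left out, the counts ran from 0 to 11 for other induced genes, 0 to 12 for repressed genes, 0 to 4 for coregulators, 0 to 1 for steroid metabolism, 0 to 2 for partners, 0 to 3 for paralogues and 0 to 4 for the pathway. *Nr3c2*, near 0, changed sign to 0.003 by DESeq2, to 0.002 with at least 10 counts in every library, and between -0.277 and 0.228 with 1 library left out.

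The libraries share replicate numbers, but there are only 2 pairs and no label ties them to an animal or a day. Whether same-numbered libraries share a source is not known from the labels, and the main fit used no pairing. Deviations of same-numbered libraries from their group means correlated at 0.27 over 13628 genes and at 0.381 over the 10746 that averaged 5 CPM or more. With a replicate block the calls were 4841 over all genes, 4 of the 8 genes, 17 other induced genes, 13 repressed genes, 9 coregulators, 1 gene of steroid metabolism, 3 partners, 4 paralogues and 6 pathway genes. With the length correction and the replicate block they were 4090 over all genes and 14, 12, 9, 2, 3 and 6 for other induced genes, repressed genes, coregulators, steroid metabolism, partners and paralogues. With the correction for GC content and length and the replicate block they were 4070 over all genes and 18, 13, 8, 2, 2 and 6 for the same lists. Counts of 3 to 21 per library for *Zbtb16* and *Airn* limit what can be said of both.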
